A study of Caenorhabditis elegans with 32 samples.

Results

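The 3 memi genes of Caenorhabditis elegans, memi-1, memi-2 and memi-3, were followed in a table of 22G RNA counts from whole worms. They are 3 of the 46932 genes in that table. The genes were found by matching the table's gene identifiers to the WBcel235 gene annotation. They were chosen by a measured result: memi-1 and memi-2 stood higher in WT descendants of hypoxic animals than in WT normoxia descendants, and memi-3 completes the family. The F1, F2 and F3 WT libraries therefore selected the members, and every contrast that uses those libraries is given for the memi genes as a description, with no test. P0 libraries and contrasts made within the hrde-1 genotype were not used in that choice and were tested.

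A 22G RNA is a short antisense RNA that starts with G and is made on a messenger RNA by an RNA-dependent RNA polymerase. Argonaute proteins bind these RNAs in the worm germ line, and HRDE-1 is the nuclear germline Argonaute needed for many silencing signals to pass between generations. The MEMI proteins are supplied by the mother to the egg and are needed for female meiosis II after fertilization. They act in a genetic pathway with the sperm phosphatases GSP-3 and GSP-4. A 22G RNA count is not a count of the gene's own transcript, so none of the values below measures memi messenger RNA or protein.

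The 32 libraries form 16 groups of 2: an hrde-1 mutant or WT, with a hypoxia or a normoxia label, at P0, F1, F2 and F3. In the labels, animals at the L4 larval stage spent 16 h at 0.1% oxygen and 20 °C and then went back to about 20% oxygen. The labels do not name the hrde-1 allele or say which generations were themselves exposed; a hypoxia label at F1 to F3 is read here, as an assumption, as descent from exposed P0 animals. All groups are whole worms, so fewer germ cells and less small RNA per germ cell cannot be told apart. Nothing in the labels says that the libraries of a group came from separate cultures, so the p-values measure the spread between these libraries, which may be technical.

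The 22G counts per library ranged from 438436 to 2578063, with a median of 1483533. Levels are CPM, the usual depth-scaled counts, here per 22G library size after TMM scaling for composition. Both P0 WT normoxia libraries stood apart: 22G RNA was 9.27% and 6.15% of the counted small RNA of 4 classes there, and 14.9% in F2 hrde-1 normoxia library 2, against 27.03% to 45.9% in all other libraries. In both F2 WT normoxia libraries part of the deposited values are multiples of 1/3, those of all 3 memi genes included, and how they arose is not given in the sources used here. The F2 WT contrasts below rest on these values, rounded. The pair of F3 hrde-1 normoxia libraries differed most from each other, with a chi-square per degree of freedom of 38.3 against a median of 6.03 over the 16 pairs. The hrde-1 gene itself carried 245 to 568 CPM of 22G RNA (median 330.3) in hrde-1 libraries and 360.4 to 689 CPM (median 476.8) in WT libraries. These antisense reads do not check the allele.

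The genes lie on chromosome IV, all on the minus strand and all protein coding with 1 annotated transcript of 4 exons (WBcel235). memi-1 (WBGene00003216) spans IV:4758982-4760428, memi-3 (WBGene00010353) spans IV:11401945-11403338, and memi-2 (WBGene00013380) spans IV:13399068-13400506. The gap from memi-1 to memi-3 is 6.642 Mb and that from memi-3 to memi-2 is 1.996 Mb. The exonic length is 1300 bases in memi-1, 1297 in memi-2 and 1248 in memi-3. The coding part with its stop codon is 1041, 1038 and 1035 bases long, in the same order of genes. Each gene has a 5′ UTR of 1 base, and the 3′ UTR is 258 bases in memi-1 and in memi-2 and 212 bases in memi-3. A cyp-31A cytochrome P450 gene starts on the opposite strand upstream of each member: cyp-31A3 at 620 bases from memi-1, cyp-31A5 at 782 bases from memi-2 and cyp-31A2 at 622 bases from memi-3. cyp-31A2 and cyp-31A3 are known to be needed to make the eggshell. The members are near copies, so a read shared by them may be assigned to either. How such reads were placed is not given in the sources used here.

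**Figure D1:**
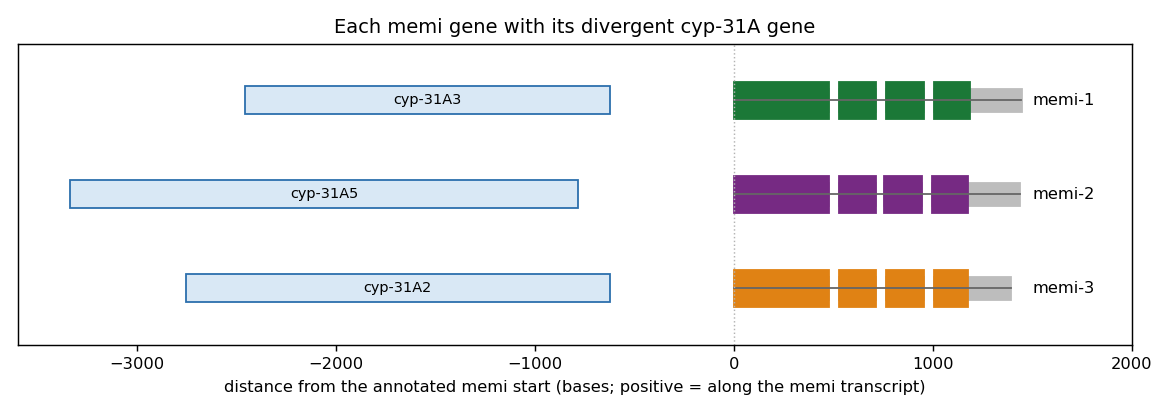
Exons, coding parts and UTRs of the 3 memi genes by position in the gene in bases. Each gene has 4 exons, and the last exon is 441 bases in memi-1 and memi-2 and 389 bases in memi-3.

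memi-1 was the most variable member. Its level ranged 13.7-fold over the 32 libraries, between 18.1 and 247.7 CPM with a median of 112.6 CPM. memi-2 ranged 4.96-fold, between 32.5 and 161.2 CPM with a median of 93.8 CPM. memi-3 ranged 3.15-fold, between 31.2 and 98.5 CPM with a median of 60.5 CPM. All members passed the filter on low counts, with at least 24 reads in every library. The library with the lowest level of each member was F3 WT normoxia library 2. Per kilobase of exon, the medians were 86.6 CPM for memi-1, 72.3 for memi-2 and 48.5 for memi-3, against a median of 13.6 over the 10121 genes tested. memi-1 stood above 88.3% of those genes, memi-2 above 86.6% and memi-3 above 81.8%.

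Across the 16 group means, memi-1 was highest in F2 hrde-1 hypoxia (212.8 ± 12.3 CPM; SD, n = 2) and lowest in F1 WT normoxia (25.9 ± 6.67 CPM). By mean, every hrde-1 descendant group stood above every WT descendant group. Only 1 pair of neighbours in that order did not overlap: F2 WT hypoxia (mean 80.6 CPM) stood above P0 WT normoxia (48.4 CPM). memi-2 was highest in P0 hrde-1 hypoxia (127.5 ± 47.6 CPM) and lowest in F1 WT normoxia (37.9 ± 2.97 CPM). Its neighbours parted at F2 WT hypoxia (72.7 CPM), P0 WT normoxia (56.2 CPM) and F2 WT normoxia (50.4 CPM). memi-3 was highest in P0 hrde-1 hypoxia (93.1 CPM) and lowest in F3 WT normoxia (43.3 ± 17.1 CPM), and only F1 hrde-1 normoxia (81.7 CPM) and P0 WT hypoxia (76.8 CPM) did not overlap as neighbours. All other neighbours in the 3 orders overlapped, so their order is within the spread of the libraries.

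**Figure D2:**
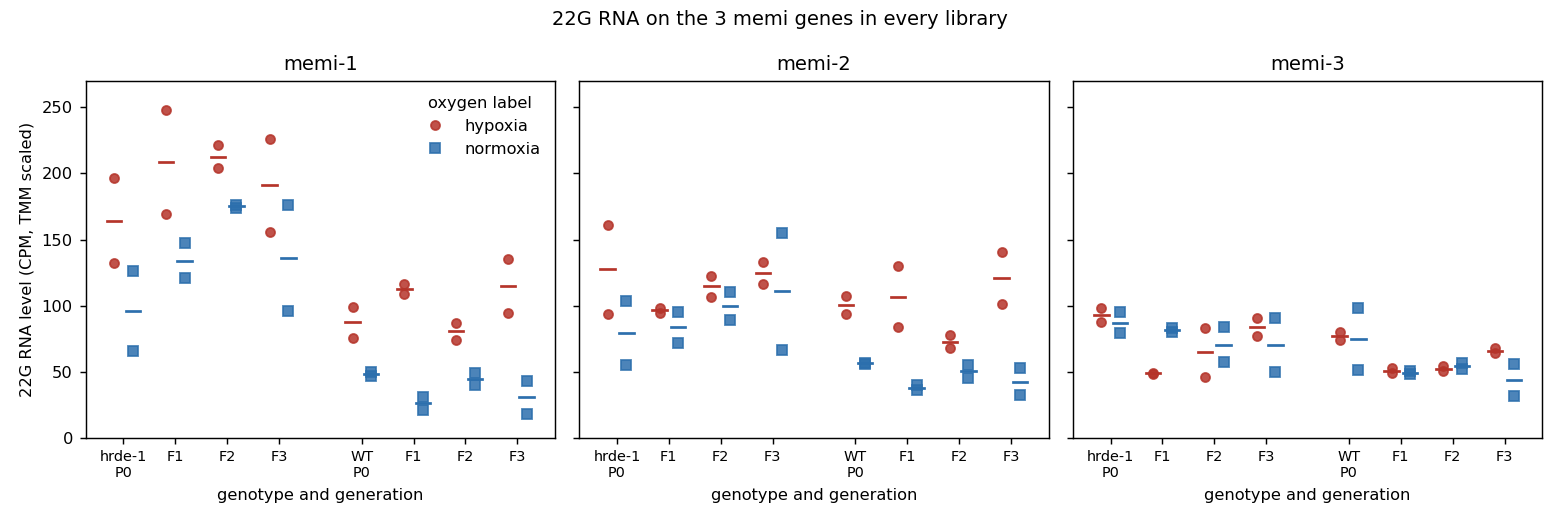
22G RNA level of each memi gene (CPM, y axis) in each library, with hrde-1 on the left and WT on the right. P0, F1, F2 and F3 stand in order, with hypoxia and normoxia side by side. memi-1 lies between 155.8 and 247.7 CPM in hrde-1 hypoxia descendants and between 18.1 and 48.6 CPM in WT normoxia descendants, while memi-3 spans 31.2 to 98.5 CPM over all libraries.

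The choice of members rests on the WT descendants, where memi-1 and memi-2 stood higher with the hypoxia label in all 3 generations and memi-3 in F3 alone. In F1 WT, memi-1 had 116.4 and 108.8 CPM in hypoxia, against 21.2 and 30.7 CPM in normoxia. In F2 WT it had 74.1 and 87.1 CPM in hypoxia, against 48.6 and 40.02 CPM in normoxia. In F3 WT it had 135.2 and 94.0 CPM in hypoxia, against 42.9 and 18.1 CPM in normoxia. Hypoxia and normoxia did not overlap in any of the 3 generations. With 2 libraries per group this is a weak description. The share of all genes without overlap was not counted, so nothing is read from such overlaps here or below.

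memi-2 showed the same order at lower ratios. It had 129.8 and 83.5 CPM in F1 WT hypoxia, against 35.8 and 39.98 CPM in F1 WT normoxia. It had 77.7 and 67.7 CPM in F2 WT hypoxia, against 55.3 and 45.5 CPM in F2 WT normoxia. It had 140.5 and 101 CPM in F3 WT hypoxia, against 52.4 and 32.5 CPM in F3 WT normoxia. These groups did not overlap either, and the F2 levels lay closest together.

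memi-3 had 48.6 and 52.7 CPM in F1 WT hypoxia, against 50.3 and 48.0 CPM in F1 WT normoxia. It had 54.1 and 50.1 CPM in F2 WT hypoxia, against 56.6 and 52.2 CPM in F2 WT normoxia. It had 63.7 and 67.9 CPM in F3 WT hypoxia, against 55.4 and 31.2 CPM in F3 WT normoxia. F1 and F2 overlapped, and F3 did not.

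As a log2 difference (hypoxia minus normoxia, edgeR estimate ± SE), memi-1 stood at 2.12 ± 0.39 in F1 WT, 0.86 ± 0.37 in F2 WT and 1.91 ± 0.38 in F3 WT. memi-2 stood at 1.49 ± 0.37, 0.53 ± 0.37 and 1.51 ± 0.37 in those generations. memi-3 stood at 0.04 ± 0.35, -0.06 ± 0.34 and 0.60 ± 0.34. The F3 WT values depended on the normoxia libraries: without library 1 they were 2.65, 1.89 and 1.07 for memi-1, memi-2 and memi-3, and without library 2 they were 1.41, 1.19 and 0.24. With the 12 libraries of F1 to F3 in 1 fit, the differences were 1.61 ± 0.23 for memi-1, 1.17 ± 0.19 for memi-2 and 0.19 ± 0.16 for memi-3. Without the F3 libraries they were 1.46, 0.996 and -0.02, and 4 libraries per arm remained.

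Of all genes, 0.168% passed an adjusted p of 0.05 (edgeR quasi-likelihood test) in F1 WT, and 1 of the 3 members was among them. In F2 WT 0% of the 10121 genes and 0 members passed. There, 164 genes fell below 0.05 before adjustment, and by DESeq2 14 passed. In F3 WT 0.346% passed, with 1 member, and in the F1 to F3 fit 4.64% passed, with 2 members. Nothing is read from these member counts, since the same libraries chose the members.

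The summed 22G level of 19 oocyte and maternal marker genes was higher with the hypoxia label in WT descendants, but 0 of the 19 genes passed the test, over F1 to F3 or in any of these generations (edgeR). Of all genes, 0.168%, 0% and 0.346% passed in F1, F2 and F3, and 4.64% passed over F1 to F3. The sum was 960 to 1091 CPM in the 6 hypoxia libraries and 805 to 936 CPM in the 6 normoxia libraries, and no marker was at 0 in a whole group. The summed level of 24 sperm genes was 362 to 559 CPM in hypoxia and 455 to 576 CPM in normoxia, with 6 to 14 genes at 0 in a hypoxia group and 2 to 5 in a normoxia group. Of 6 sperm genes tested over F1 to F3, 0 rose and 2 fell, beside 117 higher and 277 lower of all 8485 genes. The part of either in the memi differences was not tested.

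In the P0 WT animals, which the choice of members did not use, memi-1 and memi-2 were again higher in both hypoxia libraries, but neither passed the test. memi-1 had 99.1 and 75.5 CPM in P0 WT hypoxia, against 46.7 and 49.999 CPM in P0 WT normoxia. Its log2 difference was 0.85 ± 0.40 (adjusted p = 0.695, edgeR). memi-2 had 107 and 93.8 CPM in P0 WT hypoxia, against 56.1 and 56.2 CPM in P0 WT normoxia (0.84 ± 0.38, adjusted p = 0.684, edgeR). The groups did not overlap for either gene. memi-3 had 79.8 and 73.8 CPM in P0 WT hypoxia, against 51.4 and 97.9 CPM in P0 WT normoxia (0.06 ± 0.35, adjusted p = 1, edgeR), and its groups overlapped. Thus 0 of 3 members passed, beside 0.711% of all genes.

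This P0 WT result depends on how the spread is estimated. When only the 4 compared libraries entered the edgeR fit, memi-1 stood at 0.83 ± 0.24 (adjusted p = 0.0357) and memi-2 at 0.80 ± 0.22 (adjusted p = 0.0241). That setting called 780 genes, against 72 with all 32 libraries. Scaling by all 4 small RNA classes gave 3.55 and 3.52, but it also moved the median of all genes to 2.70. Over all alternatives, the adjusted p of memi-1 ran between 3.16e-06 and 1 and that of memi-2 between 2.09e-06 and 1. The normoxia values rest on 24 to 47 reads per gene and library, and they come from the 2 libraries with the low 22G share. Oocyte and maternal markers summed to 1119 to 1160 CPM in P0 WT hypoxia and 1058 to 1106 CPM in P0 WT normoxia, and their part was not tested.

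In hrde-1 animals no member passed the hypoxia test in any generation. At P0, memi-1 had 196.3 and 132.1 CPM in hypoxia, against 126.2 and 65.6 CPM in normoxia. Its log2 difference was 0.78 ± 0.36 (adjusted p = 0.743, edgeR). memi-2 had 161.2 and 93.9 CPM in P0 hrde-1 hypoxia, against 104 and 55.3 CPM in P0 hrde-1 normoxia (0.69 ± 0.36, adjusted p = 0.888, edgeR). The memi-1 groups did not overlap, and the memi-2 groups did.

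memi-3 at P0 had 98.5 and 87.7 CPM in hrde-1 hypoxia, against 79.3 and 94.8 CPM in hrde-1 normoxia (0.10 ± 0.33, adjusted p = 1, edgeR). Here 0 of 3 members passed, beside 0.731% of all genes. The P0 estimates of memi-1 and memi-2 in hrde-1 lay within 1 SE of those in P0 WT. The difference between the genotypes in this response was -0.08 ± 0.53 for memi-1, -0.15 ± 0.52 for memi-2 and 0.04 ± 0.48 for memi-3 (adjusted p = 1 for each, edgeR). Of all genes, 0.0593% passed that test, and 0 of 3 members did. Its standard errors leave room for a difference in either direction.

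In F1 hrde-1, memi-1 had 247.7 and 169.2 CPM in hypoxia, against 147 and 120.9 CPM in normoxia (0.64 ± 0.36, adjusted p = 0.8, edgeR). In F2 it had 221.5 and 204.1 CPM in hypoxia, against 173.7 and 176.3 CPM in normoxia (0.28 ± 0.36, adjusted p = 0.91, edgeR). In F3 it had 226.4 and 155.8 CPM in hypoxia, against 176.3 and 96.1 CPM in normoxia (0.49 ± 0.36, adjusted p = 0.342, edgeR). The F1 and F2 groups did not overlap, and the F3 groups did.

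memi-2 in F1 hrde-1 had 94.6 and 97.9 CPM in hypoxia, against 71.9 and 94.97 CPM in normoxia (0.21 ± 0.36, adjusted p = 1, edgeR). In F2 it had 106.7 and 122.3 CPM in hypoxia, against 89.4 and 109.9 CPM in normoxia (0.22 ± 0.37, adjusted p = 0.959, edgeR). In F3 it had 132.9 and 116.3 CPM in hypoxia, against 66.6 and 154.6 CPM in normoxia (0.17 ± 0.36, adjusted p = 0.819, edgeR). The groups overlapped in all 3 generations, and in F3 the normoxia libraries lay on either side of both hypoxia libraries. Without F3 hrde-1 normoxia library 1 the F3 value of memi-2 was -0.30.

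memi-3 in F1 hrde-1 had 48.5 and 48.97 CPM in hypoxia, against 83.01 and 80.3 CPM in normoxia (-0.74 ± 0.34, adjusted p = 0.641, edgeR). In F2 it had 82.7 and 46.2 CPM in hypoxia, against 83.6 and 57.2 CPM in normoxia (-0.17 ± 0.35, adjusted p = 0.975, edgeR). In F3 it had 76.6 and 90.7 CPM in hypoxia, against 90.3 and 49.5 CPM in normoxia (0.26 ± 0.34, adjusted p = 0.656, edgeR). Only in F1 did the groups stay apart, with hypoxia below normoxia. Without F3 hrde-1 normoxia library 2 the F3 value was -0.11. The F2 value turned to 0.17 when either F2 normoxia library 1 or F2 hypoxia library 2 was left out.

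The background of these tests differed strongly. Beside 0 of 3 members each time, 0.346% of all genes passed in F1 hrde-1 and 0% in F2 hrde-1, where 850 genes fell below 0.05 before adjustment and 58 passed by DESeq2. In F3 hrde-1 21.5% of all genes passed. Over F1 to F3 in 1 fit, the log2 differences in hrde-1 were 0.47 ± 0.20 for memi-1 (adjusted p = 0.524), 0.18 ± 0.23 for memi-2 (0.927) and -0.21 ± 0.27 for memi-3 (0.93) by edgeR. In that fit 0.176% of all genes passed. Without the F3 libraries the values were 0.43, 0.18 and -0.50, and none passed. Oocyte and maternal markers in hrde-1 summed to 1236 to 1503 CPM in hypoxia and 1113 to 1258 CPM in normoxia at P0. At F1 the sums were 884 to 987 and 1104 to 1116 CPM, and at F2 778 to 836 and 939 to 1082 CPM. At F3 they were 1123 to 1289 and 714 to 766 CPM. The part of these markers was not tested.

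Set beside WT, the difference between genotypes in the F1 to F3 hypoxia response was -1.16 ± 0.30 for memi-1, -0.98 ± 0.30 for memi-2 and -0.41 ± 0.28 for memi-3 (hrde-1 response minus WT response, log2). Its WT response chose the members, so these are descriptions. In that contrast 8.58% of all genes passed, 2 members among them, and nothing is read from this count.

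**Figure D3:**
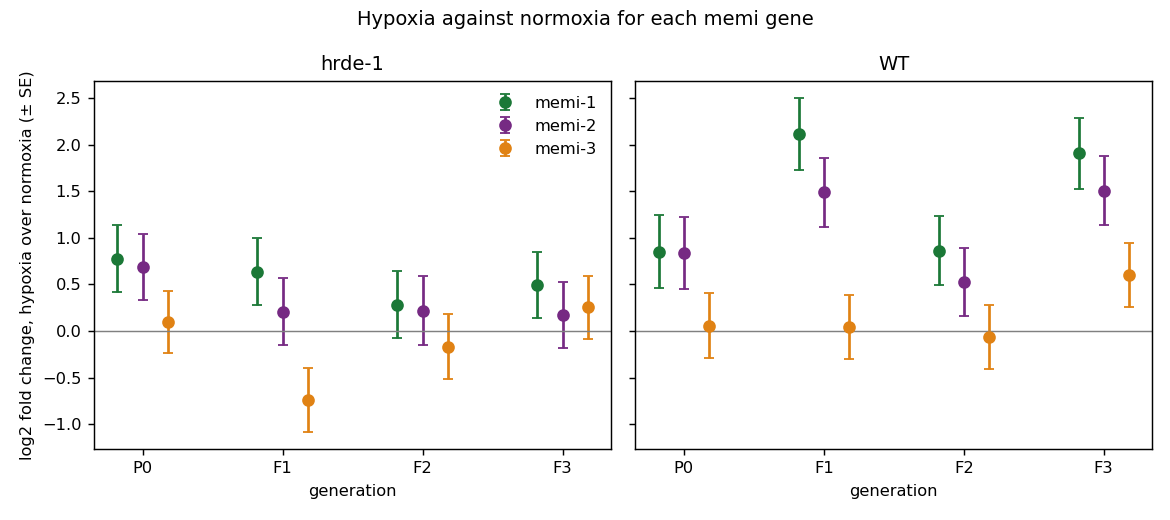
Log2 difference of 22G RNA (hypoxia minus normoxia, y axis) of the 3 memi genes at P0, F1, F2 and F3 in hrde-1 and in WT. Bars are ± 1 SE, derived from the edgeR F statistic. memi-1 stands at 2.12 in F1 WT and 1.91 in F3 WT but at 0.64 and 0.49 in the hrde-1 animals of those generations; the WT values of F1 to F3 chose the members.

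At P0, both hrde-1 libraries of each label had more memi-1 22G RNA than both WT libraries, but the test was not passed. The log2 difference (hrde-1 minus WT) was 0.99 ± 0.40 in P0 normoxia (adjusted p = 0.136, edgeR) and 0.91 ± 0.36 in P0 hypoxia (adjusted p = 0.132, edgeR). For memi-2 it was 0.50 ± 0.39 in normoxia (adjusted p = 0.565) and 0.35 ± 0.35 in hypoxia (adjusted p = 0.782), both by edgeR. For memi-3 it was 0.24 ± 0.35 (adjusted p = 0.827) and 0.28 ± 0.33 (adjusted p = 0.842), again by edgeR. Of all genes, 10.4% passed in P0 normoxia and 10.1% in P0 hypoxia, against 0 of 3 members in each.

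Other settings moved memi-1 past the threshold at P0. Without the F3 libraries its log2 difference was 0.96 ± 0.32 in normoxia (adjusted p = 0.0312) and 0.93 ± 0.27 in hypoxia (adjusted p = 0.0108), and those fits called 1846 and 1923 genes. With only the compared libraries it was 0.87 ± 0.26 in hypoxia (adjusted p = 0.0211), with 2226 genes called. Without P0 hrde-1 normoxia library 2 it was 1.42 ± 0.43 in normoxia (adjusted p = 0.0433). Scaling by all 4 small RNA classes gave 3.03 in normoxia, but it also moved the median of all genes to 1.97. All are edgeR values, and the adjusted p over all alternatives ran between 2.94e-05 and 0.867 in normoxia and between 0.0108 and 0.814 in hypoxia.

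In descendants the genotype difference of memi-1 was larger than at P0 in normoxia and close to that at P0 in hypoxia. WT libraries of these contrasts chose the members, so this is a description. Over F1 to F3 memi-1 had lowest, median and highest levels of 96.1, 160.4 and 176.3 CPM in hrde-1 normoxia. In WT normoxia they were 18.1, 35.3 and 48.6 CPM. In hypoxia they were 155.8, 212.8 and 247.7 CPM in hrde-1, against 74.1, 101.4 and 135.2 CPM in WT. The genotypes did not overlap under either label. The log2 differences were 2.14 ± 0.24 in normoxia and 1.02 ± 0.17 in hypoxia, beside 0.99 ± 0.40 and 0.91 ± 0.36 at P0.

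memi-2 had 66.6, 92.2 and 154.6 CPM as its lowest, median and highest level in hrde-1 normoxia descendants, against 32.5, 42.7 and 55.3 CPM in WT normoxia. In hypoxia descendants it had 94.6, 111.5 and 132.9 CPM in hrde-1, against 67.7, 92.2 and 140.5 CPM in WT. It thus overlapped between genotypes in hypoxia and not in normoxia, with log2 differences of 1.15 ± 0.24 in normoxia and 0.20 ± 0.18 in hypoxia.

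memi-3 had 49.5, 81.7 and 90.3 CPM in hrde-1 normoxia descendants, against 31.2, 51.2 and 56.6 CPM in WT normoxia (0.58 ± 0.22, log2). In hypoxia it had 46.2, 62.8 and 90.7 CPM in hrde-1, against 48.6, 53.4 and 67.9 CPM in WT (0.21 ± 0.18). It overlapped under both labels. Of all genes, 24.3% passed in normoxia descendants, 2 members among them, and 31.8% passed in hypoxia descendants, 1 member among them. WT libraries of these contrasts chose the members, so the counts carry no reading.

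The summed level of the 24 sperm genes was 77.5 to 240 CPM in hrde-1 descendants and 362 to 576 CPM in WT descendants. At P0 it was 45.0 to 91.6 CPM in hrde-1 and 224 to 268 CPM in WT. Single sperm genes did not all follow the sum. In hypoxia descendants 5 rose and 1 fell of 10 tested, beside 31.8% of all genes called, with a median log2 difference of 2.65 (hrde-1 minus WT). In normoxia descendants 0 rose and 1 fell of 9, beside 24.3% of all genes called, with a median of -0.36. At P0 0 rose and 1 fell of 14 in hypoxia (median 1.41), beside 10.1% of all genes called. In P0 normoxia 0 rose and 2 fell of 14 (median -0.97), beside 10.4%. Oocyte and maternal markers summed to 714 to 1116 CPM in hrde-1 normoxia descendants and 805 to 936 CPM in WT normoxia ones. In hypoxia descendants they summed to 778 to 1289 CPM in hrde-1 and 960 to 1091 CPM in WT. At P0 the sum was 1113 to 1503 CPM in hrde-1 and 1058 to 1160 CPM in WT. The part of the sperm or the oocyte sum in the memi differences was not tested.

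Within hrde-1, descendants and P0 animals could be compared in libraries that did not choose the members. In normoxia the log2 difference (F1 to F3 minus P0) was 0.62 ± 0.30 for memi-1 (adjusted p = 0.22), 0.29 ± 0.30 for memi-2 (0.653) and -0.23 ± 0.27 for memi-3 (0.705) by edgeR. In hypoxia it was 0.31 ± 0.29 (adjusted p = 0.705), -0.20 ± 0.28 (0.847) and -0.54 ± 0.27 (0.311), in the same order of genes. Of all genes, 10.1% passed in normoxia and 4.43% in hypoxia, against 0 of 3 members in each.

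F3 hrde-1 normoxia was also set against F1 and F2 of that label, since 19.2% of all genes passed in that test. The members were among those that did not: memi-1 stood at -0.17 ± 0.31 (adjusted p = 0.772), memi-2 at 0.29 ± 0.31 (0.561) and memi-3 at -0.13 ± 0.30 (0.827) by edgeR. The median over all genes was -0.33. Without F3 hrde-1 normoxia library 2, all 3 signs turned, to 0.18, -0.46 and 0.21. Across the 12 tested comparisons, 0 of 36 member values passed, and 7 had an unadjusted p below 0.05 (edgeR). In P0 WT 2 of 3 members did, beside 680 of 10121 genes. In hrde-1 1 of 3 did at P0, F1 and over F1 to F3, beside 615 and 719 of 10121 and 663 of 8523 genes. For hrde-1 minus WT at P0 1 of 3 did in normoxia and in hypoxia, beside 1955 and 1784 of 10121 genes. In the other comparisons 0 of 3 did, beside 284 to 3646 of 10121 genes. Nothing is read from the 7. The estimates were above 0 in 10 of 12 comparisons for memi-1, in 10 for memi-2 and in 6 for memi-3. Several of these comparisons share libraries, and the signs were not set against those of all genes, so nothing is read from them.

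Which member led the family changed with the group. The F1 to F3 WT libraries chose the members, so the WT orders among descendants are a description. Per kilobase, memi-1 exceeded memi-2 in 6 of 6 hrde-1 hypoxia descendant libraries, 5 of 6 hrde-1 normoxia ones, 2 of 6 WT hypoxia ones and 0 of 6 WT normoxia ones. memi-1 exceeded memi-3 in 6 of 6 libraries of hrde-1 hypoxia, of hrde-1 normoxia and of WT hypoxia, and in 0 of 6 of WT normoxia. The median levels of memi-1 per kilobase were 163.7, 123.4, 78.01 and 27.2 CPM in those 4 sets. Those of memi-2 were 86.0, 71.1, 71.1 and 32.9 CPM, and those of memi-3 were 50.3, 65.4, 42.8 and 41.1 CPM. At P0, memi-1 exceeded memi-2 in 2 of 2 libraries of hrde-1 hypoxia and of hrde-1 normoxia. It did so in 0 of 2 libraries of WT hypoxia and of WT normoxia. memi-1 exceeded memi-3 at P0 in 2 of 2, 1 of 2, 1 of 2 and 0 of 2 libraries, in the same order of sets.

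As a share of the 22G counts of the 3 genes together, memi-1 held 53.4 ± 6.53% in hrde-1 hypoxia descendants, 46.0 ± 8.03% in hrde-1 normoxia, 39.7 ± 3.44% in WT hypoxia and 25.9 ± 4.19% in WT normoxia (SD, n = 6 each). memi-3 ran the other way, at 17.2 ± 4.87%, 23.2 ± 5.25%, 22.2 ± 4.0003% and 39.2 ± 4.12%. memi-2 held 29.4 ± 3.50%, 30.9 ± 11.2%, 38.1 ± 4.20% and 34.8 ± 2.47%. The wide spread of memi-2 in hrde-1 normoxia included F3 library 2, where it held 51.5% of 528 counts (95% Wilson interval 47.3% to 55.8%) and memi-1 held 32.0% (28.2% to 36.1%). Shares add to the whole, so one member's share cannot fall without another's going up. The WT shares come from libraries that chose the members, so they are a description.

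Because reads can move between near copies, the 3 genes were also summed, a setting chosen after counts were seen to shift between copies. The sum had a lowest, median and highest level of 316, 381.7 and 436 CPM in hrde-1 hypoxia descendants. It had 296, 317.6 and 347 CPM in hrde-1 normoxia, 205, 253.9 and 339 CPM in WT hypoxia and 81.8, 128.1 and 161 CPM in WT normoxia. WT normoxia did not overlap any other set, but the WT libraries chose the members, so nothing is read from this. As a description, the sum was 2.03-fold higher in WT hypoxia than in WT normoxia descendants (log2 1.02 ± 0.17) and 2.51-fold higher in hrde-1 than in WT normoxia descendants (1.33 ± 0.16).

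In hrde-1 descendants the hypoxia difference of the sum was 0.25 ± 0.14 over F1 to F3. At P0 it was 0.55 ± 0.25 in hrde-1 and 0.57 ± 0.26 in WT. The genotype difference of the sum at P0 was 0.54 ± 0.25 in hypoxia and 0.55 ± 0.26 in normoxia. Sums are given with their SE and without a p.

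The divergent cyp-31A genes did not follow the memi genes as a sum. The 3 cyp-31A genes together had 41.4 to 55.8 CPM in hrde-1 hypoxia descendants, 34.9 to 66.1 CPM in hrde-1 normoxia, 34.5 to 57.5 CPM in WT hypoxia and 41.8 to 48.5 CPM in WT normoxia. All 4 ranges overlapped. The hypoxia difference of this sum over F1 to F3 was 0.03 ± 0.15 in WT, and the genotype difference in normoxia was 0.08 ± 0.23.

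Within that sum, single copies shifted widely. In F3 hrde-1 normoxia, cyp-31A3 had 34.3 and 57.4 CPM, cyp-31A5 had 0.62 and 1.14 CPM, and cyp-31A2 had 0 reads in both libraries. cyp-31A3 held 98.1% of 103 cyp-31A reads in the second of these (95% Wilson interval 93.2% to 99.5%). Taken singly, cyp-31A5 stood 4.39 ± 0.83 higher on the log2 scale in F3 hrde-1 hypoxia than in F3 hrde-1 normoxia (adjusted p = 0.000688, edgeR). cyp-31A2 was at least 15.2-fold higher there, against a floor of 3 counts over the normoxia group. How alike the cyp-31A copies are was not checked here, since no sequence was used. They may share reads, so a switch of reads between them and a change of 1 copy cannot be told apart. Intervals and floors cover counting error only.

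**Figure D4:**
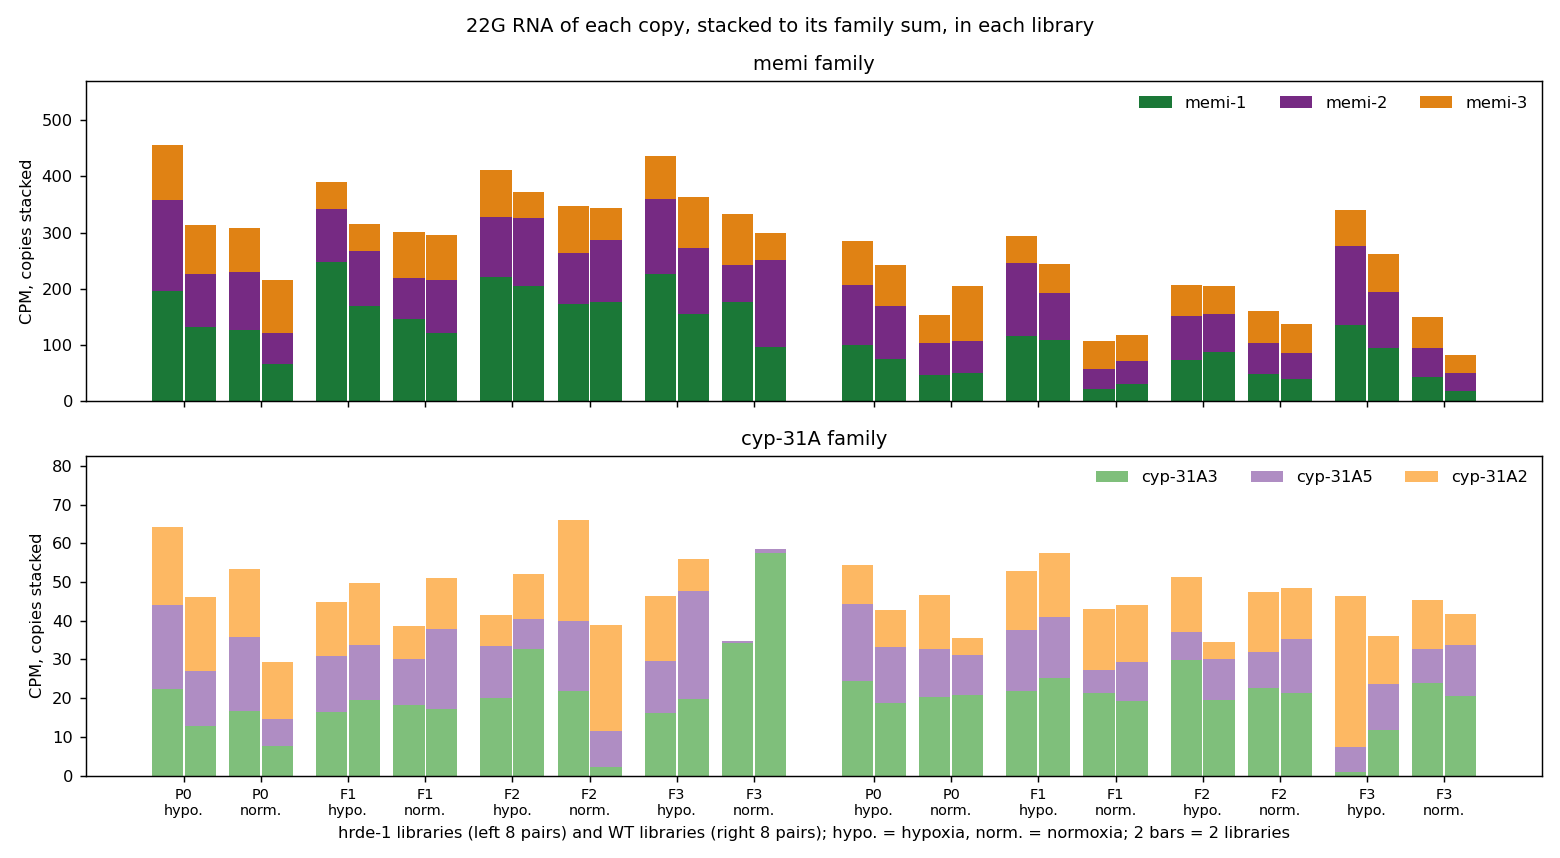
22G RNA level (CPM, y axis) of the 3 memi genes and of the 3 cyp-31A genes in each library, with the copies stacked to their sum. hrde-1 stands on the left and WT on the right, by generation, with hypoxia and normoxia side by side. The memi sum has medians of 381.7, 317.6, 253.9 and 128.1 CPM in the F1 to F3 libraries of these 4 sets, and the cyp-31A sum has 48.0, 44.9, 48.8 and 44.6 CPM.

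The annotation holds 28 genes that overlap a member or lie within 10 kb of one, and 19 of them passed the filter. In WT, 0 of 19 passed the hypoxia test at P0, F1, F2 or F3, beside 0.711%, 0.168%, 0% and 0.346% of all genes. In the F1 to F3 fit 0 of 16 passed, beside 4.64%. The median log2 difference of the neighbours in that fit was 0.07, against -0.01 over all genes. The neighbours of memi-1 include rpl-20, a ribosomal protein gene, and Y17G9B.8, which lies 141 bases away. Those of memi-3 include the histone genes his-63, his-64, his-47 and his-58.

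With genotype, 3 neighbours rose and 1 fell of 17 tested in normoxia descendants, beside 24.3% of all genes called, and 3 rose and 2 fell of 17 in hypoxia descendants, beside 31.8%. These shares are near the background. At P0 3 of 19 rose under each label, beside 10.4% and 10.1% of all genes in normoxia and hypoxia. The 3 that rose lie near memi-1. npp-26, which lies 4293 bases from memi-1, had lowest, median and highest levels of 112, 300.4 and 348 CPM in hrde-1 normoxia descendants, against 9.10, 15.2 and 23.2 CPM in WT normoxia. Its log2 difference was 4.10 ± 0.30 (adjusted p = 9e-08, edgeR), and at P0 in normoxia it was 2.64 ± 0.45 (adjusted p = 0.000114). Y17G9B.2, at 3715 bases, had 114, 269 and 371 CPM in hrde-1 normoxia descendants, against 3.03, 4.33 and 8.93 CPM in WT normoxia. Its log2 difference was 5.69 ± 0.36 (adjusted p = 1.92e-08, edgeR), and at P0 in normoxia it was 4.41 ± 0.75 (adjusted p = 0.000132).

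The non-coding RNA gene R11E3.18, at 8915 bases, had 48.6, 92.2 and 111 CPM in hrde-1 normoxia descendants, against 0, 0.30 and 0.67 CPM in WT normoxia. In WT hypoxia descendants it had 0 reads in all 6 libraries, against 84.9 to 157 CPM in hrde-1 hypoxia descendants. At P0 in hypoxia its log2 difference was 4.07 ± 0.47 (adjusted p = 8.65e-07, edgeR). In the same stretch, Y17G9B.5, at 7490 bases, fell by 1.10 ± 0.21 on the log2 scale in hrde-1 normoxia descendants (adjusted p = 0.00142, edgeR). cyc-2.1, a cytochrome c gene, fell by 1.83 ± 0.45 in hrde-1 hypoxia descendants (adjusted p = 0.00376, edgeR).

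In F3 hrde-1 hypoxia against F3 hrde-1 normoxia, 4 of 19 neighbours rose: Y17G9B.8, cyp-31A5, cyp-31A2 and his-63. Beside them 21.5% of all genes were called, of which 1543 rose and 636 fell. his-63 stood at 3.37 ± 0.97 (adjusted p = 0.0162, edgeR). Y17G9B.8 had 0 reads in both F3 hrde-1 normoxia libraries and was at least 19.7-fold higher in F3 hrde-1 hypoxia, against the same floor of 3 counts. Between F3 and F1 with F2 in hrde-1 normoxia, the same 4 genes fell, and so did gfat-2 (-0.95 ± 0.30, adjusted p = 0.0288, edgeR), beside 19.2% of all genes called. Between F1 to F3 and P0 in hrde-1 normoxia, cyp-31A2 (adjusted p = 0.0141) and Y62E10A.19 (adjusted p = 0.0257) passed by edgeR, beside 10.1% of all genes. cyp-31A2 averaged 16.0 CPM at P0, 10.8 CPM at F1 and 26.8 CPM at F2 and had 0 reads at F3, so its test rests on F3, and F2 stood above P0. Y62E10A.19 had 15.6 and 23.8 CPM at P0, 0.79 and 5.18 CPM at F1, 6.54 and 4.58 CPM at F2 and 0 reads at F3. In the difference between genotypes of the F1 to F3 hypoxia response, 1 of 19 neighbours passed, beside 8.58% of all genes. It was Y17G9B.8 (adjusted p = 0.0448, edgeR), which had 0 reads in F3 hrde-1 normoxia. Histone genes have near-identical copies, so the place of their reads is uncertain.

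**Figure D5:**
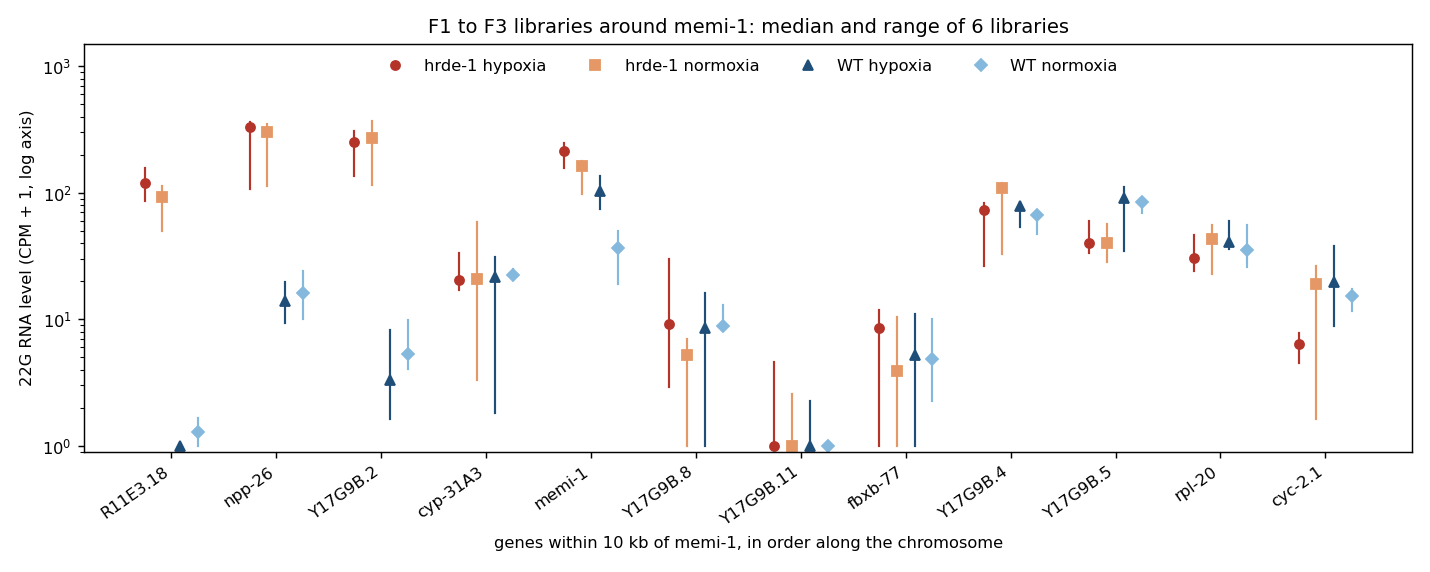
22G RNA level (CPM + 1, log y axis) of memi-1 and the annotated genes near it, in order along the chromosome. Markers give the median and lines the lowest to highest of the 6 F1 to F3 libraries of each set. The sets are hrde-1 hypoxia, hrde-1 normoxia, WT hypoxia and WT normoxia. memi-1 has a median of 160.4 CPM in hrde-1 normoxia and of 35.3 CPM in WT normoxia.

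The wider pathway was described with a list of 89 genes of oocyte meiosis and the oocyte-to-embryo transition, which does not hold the memi genes. Of these, 83 passed the filter in the 32-library fit and 82 in the fits of descendants. The sperm phosphatase genes gsp-3 and gsp-4, the genetic partners of memi, were under the filter, with at most 5.86 and 11.2 CPM. spe-11, perm-2, perm-4 and gld-1 were under it too.

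In WT, 5 of 82 list genes rose and 0 fell in hypoxia over F1 to F3, beside 4.64% of all genes called. Of all 8485 genes in that fit, 117 rose and 277 fell. Whether the list differs from all genes in direction was not tested. The list's median log2 difference was 0.21, against -0.01 over all genes. Those 5 were egg-4 (0.81 ± 0.18, adjusted p = 0.0165) and egg-5 (0.77 ± 0.12, adjusted p = 0.00208), near-identical pseudophosphatase genes needed for egg activation. The others were the survivin gene bir-1 (0.94 ± 0.25, adjusted p = 0.0409), the kinesin-13 gene klp-7 (0.56 ± 0.09, adjusted p = 0.00206) and the separase gene sep-1 (0.51 ± 0.12, adjusted p = 0.029), all by edgeR. At P0 WT only egg-5 of 83 rose (1.37 ± 0.28, adjusted p = 0.00986, edgeR), beside 0.711% of all genes called. In F1, F2 and F3 WT taken singly 0 of 83 passed, beside 0.168%, 0% and 0.346% of all genes. The medians were 0.19, 0.19 and 0.24 in those generations.

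In hrde-1, 0 of 83 list genes passed the hypoxia test at P0, F1 or F2, with medians of 0.23, -0.07 and -0.20. Of all genes, 0.731%, 0.346% and 0% passed there. Over F1 to F3 1 of 82 fell, the anaphase-promoting complex gene emb-1 (-1.501 ± 0.27, adjusted p = 0.0455, edgeR), beside 0.176% of all genes called. In F3 alone the median of the list was 0.45, against 0.09 over all genes. There 21.5% of all genes passed, with 1543 higher and 636 lower of 10121, and 20 of 83 list genes rose and 0 fell. The meiotic cohesin gene rec-8 was among them (2.05 ± 0.37, adjusted p = 0.00048), as was klp-18, a kinesin of the oocyte spindle (1.26 ± 0.22, adjusted p = 0.000296), both by edgeR. In F3 against F1 and F2 of hrde-1 normoxia, 1 list gene rose and 19 fell of 83, beside 19.2% of all genes called. rec-8 fell by 2.07 ± 0.34 (adjusted p = 0.000182) and the katanin gene mei-1 fell by 0.88 ± 0.27 (adjusted p = 0.0229), while the phosphatase gene gsp-2 rose (1.12 ± 0.31, adjusted p = 0.0143), all by edgeR. egg-3, an anchor of egg activation, had 0 reads in F3 hrde-1 normoxia and was at least 23.3-fold lower there than in F1 and F2.

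klp-7 passed in each of the 4 genotype comparisons. It rose in hrde-1 over WT by 0.79 ± 0.19 in P0 normoxia (adjusted p = 0.00467) and by 0.63 ± 0.18 in P0 hypoxia (adjusted p = 0.0263), by edgeR. In descendants it rose by 1.16 ± 0.11 in normoxia (adjusted p = 1.49e-06) and by 0.79 ± 0.12 in hypoxia (adjusted p = 2.8e-05), again by edgeR. Of 83 list genes, 7 rose and 0 fell at P0 in normoxia, beside 10.4% of all genes called, and 3 rose and 1 fell at P0 in hypoxia, beside 10.1%. In descendants 9 rose and 3 fell of 82 in normoxia, together below the 24.3% of all genes called (873 rose and 1285 fell of 8882). In hypoxia descendants 12 rose and 5 fell of 82, together below the 31.8% of all genes called (1286 rose and 1482 fell of 8716). There the Aurora B gene air-2 fell by 0.82 ± 0.18 (adjusted p = 0.00156, edgeR). emb-1 rose in hrde-1 normoxia descendants by 3.98 ± 0.28 (adjusted p = 5.14e-08, edgeR), while gfi-3, a gene for another subunit of that complex, fell by 4.28 ± 0.98 (adjusted p = 0.0047, edgeR).

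For the difference between genotypes in the hypoxia response, 0 of 83 passed at P0, beside 0.0593% of all genes. Over F1 to F3 1 of 83 passed, below the 8.58% of all genes called, and it was again emb-1 (-2.17 ± 0.53, adjusted p = 0.0124, edgeR). Between F1 to F3 and P0 in hrde-1, 4 fell in normoxia and 3 in hypoxia, beside 10.1% and 4.43% of all genes called; klp-16 and klp-18 were in both sets. The kinase gene mbk-2, the oocyte maturation gene oma-1 and zyg-11, a cullin adaptor gene needed in meiosis II, passed in none of the 19 comparisons.

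Over the 16 group means of log2 CPM, memi-1 and memi-2 varied together, with a Pearson r of 0.92 (Spearman 0.76). memi-3 went less with either, with r of 0.48 to memi-1 and 0.54 to memi-2. These are descriptions over groups that share genotype and label. The 4 other genes most like memi-1 were mip-2, a germ granule gene (r = 0.96), Y53F4B.9 (0.95), klp-7 (0.94) and set-9, a SET domain gene (0.93). Those most like memi-2 were C23G10.7 (0.90), the inositol phosphate synthase gene inos-1 (0.88), Y53F4B.9 (0.87) and nefr-1 (0.86). Those most like memi-3 were the eggshell gene perm-1 (0.84), ndua-2 (0.83), the Pumilio-family gene puf-11 (0.83) and lin-41, a regulator of oocyte growth (0.81).

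All of these genes were picked over all groups, so their hypoxia differences are given here without a test. klp-7 is also on the pathway list and was tested above as one of its genes. Over F1 to F3, mip-2 stood at 0.52 ± 0.20 in hrde-1 and at 0.98 ± 0.15 in WT (log2, hypoxia minus normoxia). Y53F4B.9 stood at 0.24 ± 0.17 in hrde-1 and at 0.65 ± 0.10 in WT, and klp-7 at 0.15 ± 0.15 in hrde-1 and at 0.56 ± 0.09 in WT. set-9 stood at 0.48 ± 0.15 in hrde-1 and at 0.64 ± 0.10 in WT, which lie close together. Among those like memi-2, inos-1 stood at 0.56 ± 0.21 in hrde-1 and at 1.39 ± 0.16 in WT, and C23G10.7 at 0.54 ± 0.25 in hrde-1 and at 1.03 ± 0.17 in WT. nefr-1 stood at 0.23 ± 0.29 in hrde-1 and at 0.39 ± 0.18 in WT, within its SE. Among those like memi-3, perm-1 stood at 0.05 ± 0.30 in hrde-1 and at 0.71 ± 0.20 in WT, and puf-11 at 0.06 ± 0.30 in hrde-1 and at 0.36 ± 0.16 in WT. lin-41 and ndua-2 stood at -0.12 ± 0.50 and -0.12 ± 0.55 in hrde-1, and at 0.69 ± 0.24 and 0.49 ± 0.42 in WT.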

How the data were processed

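Small RNA was sequenced from whole worms (32 libraries, single-end reads of 85 bases) after a 5′ pyrophosphohydrolase step, per the labels' protocols. The deposited 22G table holds counts per gene, which the authors made with cutadapt 2.5, featureCounts and edgeR among the tools named, per the submitters' processing notes. The aligner, build, annotation and strand setting are not given in the sources used here. The deposited F2 WT normoxia columns were treated, by assumption, like estimated counts because 24.4% and 23.6% of the genes have a fractional value there; how these values were made is not given in the sources used here, and they were rounded to whole numbers. The 5 summary entries, 28.1% to 36.0% of each library's table total, were left out. No column was without a sample.

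Genes were named from the WBcel235 annotation (46919 of 46932 matched). Counts were fitted in edgeR 4.0.16 (R 4.3.3) with TMM scaling, a minimum count of 10, robust quasi-likelihood F tests and Benjamini-Hochberg adjustment over all genes tested, with a threshold of 0.05. A fit of 16 group means used all 32 libraries, and contrasts pooled over F1 to F3 used 12 libraries with generation as a term. edgeR gives no SE here, so each SE was derived as the absolute log2 difference divided by the square root of its F statistic. DESeq2 1.42.0, other scalings, other filters, subsets of libraries and leaving out each library were the alternatives. The fits were tested on simulated data. Figures were drawn with matplotlib 3.10.9. Shares have 95% Wilson intervals, and a count of 0 has a floor of 3 counts; both cover counting error only.

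The members and gene lists were chosen with earlier results of these data known. Named were the members, the 4 most alike genes per member, annotated genes within 10 kb, hrde-1, and from the pathway list 9 preset genes and those past the threshold. Genes chosen by shared sequence were not analysed here, since no sequence was used.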

Additional observations from a re-analysis of the deposited data

How the results depend on the processing

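Of 411 recomputed values of the 36 tested results, 370 kept direction and side of the threshold, 14 passed the threshold anew and 27 changed sign (22 of them when 1 library was left out). Of 327 recomputed values of the 21 described results, 317 moved by less than 1 SD of the libraries within a group and 10 by more. No tested result passed at first, so none could be lost. Of the values that passed anew, 8 came from scaling by 4 small RNA classes. That scaling called 7496 of 10121 genes in P0 WT and 5020 in P0 hrde-1 minus WT in normoxia. In the P0 difference in response it called 3919. Replicate numbers did not pair the hypoxia and normoxia libraries of a genotype and generation: over these 8 pairs the correlation of deviations was -0.0099 to 0.036. Over all 120 pairs of groups the median was 0.0028 and the highest 0.635, so some other pairs of groups shared deviations by replicate number. With a replicate block P0 WT memi-1 stood at 0.84 (adjusted p = 0.541), and the block changed no member's call.

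Scaling by 4 small RNA classes gave, for memi-1, memi-2 and memi-3, 3.55, 3.52 and 2.80 in P0 WT (all-gene median 2.70), 2.37, 1.98 and 1.04 in F3 WT, and 3.03, 2.54 and 2.31 for P0 hrde-1 minus WT in normoxia (median 1.97). It gave -2.40, -2.45 and -2.32 for the P0 difference in response (median -2.32). For hrde-1 minus WT in hypoxia it gave -0.0135 for memi-3 at P0 (median -0.27), and -0.18 for memi-2 and -0.17 for memi-3 over F1 to F3 (median -0.40). It gave -0.20 for memi-1 in hrde-1 hypoxia descendants minus P0 (median -0.64). DESeq2 gave 0.0025 for memi-1 in the P0 difference in response and 0.0263 for memi-3 in F3 minus F1 and F2. With only the compared libraries, P0 WT memi-1 was 0.83 and memi-2 0.80, and P0 hypoxia hrde-1 minus WT memi-1 was 0.87. Without the F3 libraries P0 hrde-1 minus WT memi-1 was 0.93 in hypoxia and 0.96 in normoxia. The cause was not tested.

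Leaving out each library in turn gave these lowest and highest log2 differences. In F3 WT, memi-1 ran between 1.41 and 2.65, memi-2 between 1.19 and 1.89 and memi-3 between 0.24 and 1.07. In P0 WT, memi-3 ran between -0.335 and 0.60. In hrde-1 hypoxia minus normoxia, memi-2 ran between -0.00037 and 0.39 in F1 and between -0.30 and 0.91 in F3, and memi-3 between -0.65 and 0.17 in F2 and between -0.11 and 0.76 in F3. In P0 normoxia hrde-1 minus WT, memi-1 ran between 0.44 and 1.42, memi-2 between -0.0267 and 0.92 and memi-3 between -0.15 and 0.79; in P0 hypoxia memi-2 ran between -0.0845 and 0.72. In the P0 difference in response, memi-1 ran between -0.48 and 0.50, memi-2 between -0.61 and 0.40 and memi-3 between -0.50 and 0.46. In hrde-1 descendants minus P0, memi-2 ran between -0.12 and 0.83 in normoxia and between -0.58 and 0.23 in hypoxia. In F3 minus F1 and F2, memi-1 ran between -0.71 and 0.18, memi-2 between -0.46 and 0.74 and memi-3 between -0.67 and 0.21.

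Counts of all genes called moved by over 1.5 times in most comparisons: over all alternatives, 26 to 7496 in P0 WT (main 72), 0 to 392 in F1 WT (17), 0 to 98 in F2 WT (0), 0 to 301 in F3 WT (35), 20 to 320 in P0 hrde-1 (74), 1 to 388 in F1 hrde-1 (35), 0 to 169 in F2 hrde-1 (0), 0 to 3532 in F3 hrde-1 (2179), 0 to 141 in F1 to F3 hrde-1 (15) and 193 to 735 in F1 to F3 WT (394). For P0 hrde-1 minus WT they were 698 to 5020 in normoxia (1056) and 651 to 2226 in hypoxia (1027), for the difference in response 0 to 3919 at P0 (6) and 369 to 2280 over F1 to F3 (868), and for hrde-1 over generations 43 to 2527 (1022), 95 to 837 (448) and 0 to 3996 (1948). The P0 hypoxia difference of memi-1 had an SE of 0.36 in hrde-1, with 121 to 526 reads per library, and of 0.40 in WT, with 24 to 179 reads.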
